A study of Mus musculus with 15 samples.

Results

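The effect of lisinopril, an inhibitor of angiotensin-converting enzyme, was measured over tumour-bearing and tumour-free mice together, in RNA of the tibialis anterior, the muscle at the front of the shin. The 7 libraries of mice given lisinopril were set against the 8 libraries of mice without it, with tumour status as a covariate, so that the estimate averages the drug difference within each tumour state. All 15 libraries of the series entered. The comparison held the 11923 genes with at least 1 TPM (a transcript's length-corrected share of its library, scaled to a sum of 1000000) in at least 3 libraries, of 47643 gene symbols in the table. No gene passed the threshold, and levels and differences are therefore given with their errors and without a call.

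The mice were female C57BL/6J animals labelled with an age of 7 weeks, and the labels do not say whether that is the age at implantation or at collection. Control mice (4 libraries) were mock-injected and had no drug, and lisinopril mice (3 libraries) were labelled as controls with lisinopril. Melanoma mice (4 libraries) carried a melanoma that induces cachexia, the wasting of muscle and fat, and melanoma plus lisinopril mice (4 libraries) carried it and were given lisinopril. The design text calls the tumour a xenograft and places collection at 49 days after implantation, while the extraction label names another tumour model and time. The tumour line and the dose, route and duration of the drug could not be read from the labels. The labels call the libraries biological replicates without identifying animals, so the p-values measure the spread between these libraries.

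Angiotensin-converting enzyme, made mainly by endothelium, cuts the inactive peptide angiotensin I to angiotensin II, which constricts vessels and drives aldosterone release, and it also degrades bradykinin. Angiotensin I is released by renin from angiotensinogen, and angiotensin II acts on the type 1 receptor and, often in the opposite sense, on the type 2 receptor. In skeletal muscle, angiotensin II is known for promoting protein breakdown, fibrosis and oxidant production, and inhibitors of the enzyme are best known as blood pressure drugs.

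Every column summed to 1000000 TPM, so sequencing depth is unknown and counting error cannot be given. Between 10530 and 12363 genes reached 1 TPM per library, and mitochondrially encoded transcripts took 28.5 to 52.8% of the TPM. Control 2 and melanoma 2, both without drug, resembled the rest of their group least, at a mean correlation of 0.937 and 0.938 where the other libraries had 0.965 to 0.984. Control 2 held 23878 TPM of haemoglobin transcripts against 159 to 4197 TPM elsewhere. Melanoma 2 held 554 TPM of Pvalb, parvalbumin, the calcium buffer of fast fibres and a marker of this muscle, against 5159 to 14622 TPM elsewhere. The median SD of a gene within a group, in log2(TPM + 1), was 0.29 in control, 0.14 with lisinopril, 0.28 with melanoma and 0.26 with melanoma plus lisinopril. It was 0.22 in control without control 2 and 0.18 in melanoma without melanoma 2. Since both libraries lie in the arm without drug, results are also given without them where they bear on a value. Of 11 markers of keratinocytes and melanocytes, 2 passed the filter.

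The pooled comparison asks whether muscle transcripts differed with the drug whatever the tumour status. By limma on log2(TPM + 1) with Benjamini-Hochberg adjustment, 0 of 11923 genes (0%) had an adjusted p under 0.05, and the smallest adjusted p was 0.680. At an unadjusted p under 0.05 there were 649 genes (5.44%), 21 of them higher with lisinopril (0.176%) and 628 lower (5.27%). The tumour term of the same fit called 2481 genes (20.8%) and had 4638 genes at an unadjusted p under 0.05. The median absolute log2 fold change was 0.14 for lisinopril and 0.25 for the tumour.

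The excess of lower values moved with the scaling of the libraries. Over all genes the median difference with lisinopril was -0.12, in log2, with 80.4% of genes under 0. It was -0.01 after median-ratio rescaling and 0.01 after quantile normalization, and -0.06 without control 2 and melanoma 2. Among genes with an unadjusted p under 0.05, 210 were higher and 268 lower after median-ratio rescaling, 224 and 150 after quantile normalization, and 31 and 370 without the 2 libraries. Values of gene lists are therefore given relative to the median of all genes in the same comparison and setting. For the pooled values this means that -0.12 is subtracted, for tumour-free muscle -0.18 and for tumour-bearing muscle -0.06. Values of single genes, and counts of list members at an unadjusted p under 0.05, are not corrected in this way. Of all genes, 5.27% were lower and 0.176% higher at that threshold. Across 29 alternative settings limma called 0 genes, with smallest adjusted p-values from 0.332 to 1.00 and between 269 and 1699 genes at an unadjusted p under 0.05.

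The intervals give the range of drug differences compatible with each gene's values, without adjustment for the number of genes. The median standard error of a log2 fold change was 0.15. The 95% interval lay wholly between -1 and 1 in log2 for 11162 genes (93.6%), and wholly within a 1.5-fold difference for 8353 genes (70.1%). A log2 fold change beyond 1 in size was estimated for 14 genes, 1 higher and 13 lower with lisinopril, and none of these 14 had an interval wholly beyond 1. On the log2(TPM + 1) scale the differences of genes near or under 1 TPM are understated.

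**Figure D1:**
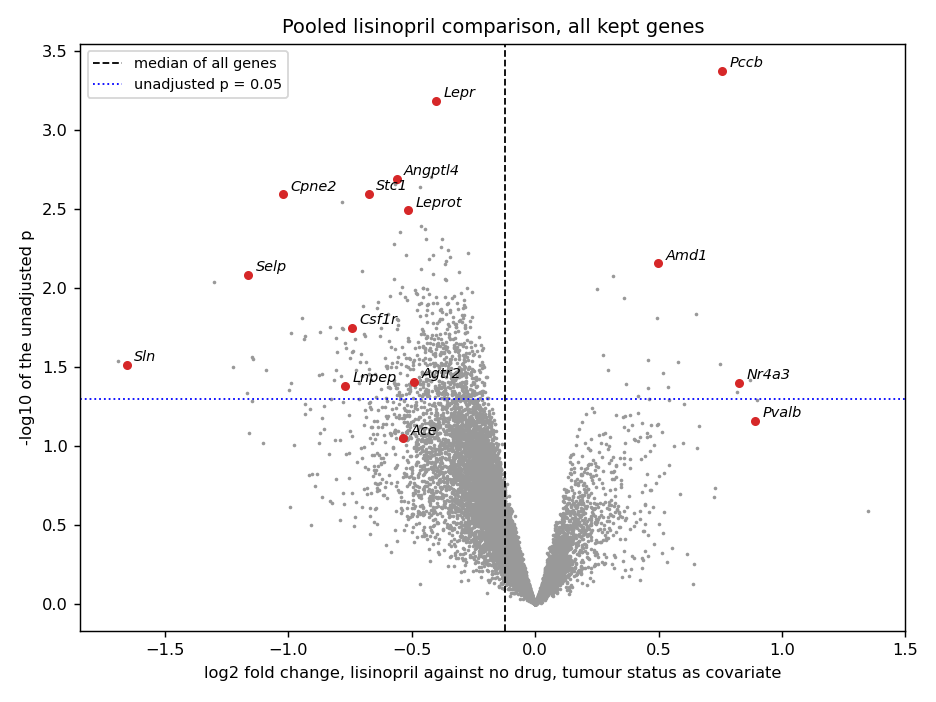
Each point is 1 of the 11923 genes, with the log2 fold change of lisinopril against no drug on the x axis and -log10 of the unadjusted p on the y axis, and the dashed line marks the median of all genes at -0.12. Most points lie left of 0, 649 lie above the dotted line at an unadjusted p of 0.05, and the highest point, Pccb, has an adjusted p of 0.680.

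Ace encodes the enzyme that lisinopril binds. The mouse gene lies on chromosome 11, 105967945 to 105989964, plus strand (GRCm38), and is known to use a promoter before its first exon in somatic tissue and another within the gene in developing sperm. The bases before both RefSeq starts (GRCm38.p6, plus strand, exons left out) are shown because the enzyme is the drug's target. Capitals mark GC boxes, GGGCGG or its reverse complement CCGCCC, with overlapping matches counted separately.
Ace start 1, chr11:105967698-105967944: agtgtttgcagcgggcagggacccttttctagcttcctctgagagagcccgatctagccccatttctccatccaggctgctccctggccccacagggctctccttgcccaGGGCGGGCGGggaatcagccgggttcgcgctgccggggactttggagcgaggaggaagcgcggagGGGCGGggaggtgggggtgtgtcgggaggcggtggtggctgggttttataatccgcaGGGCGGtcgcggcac
Ace start 2, chr11:105974939-105975188: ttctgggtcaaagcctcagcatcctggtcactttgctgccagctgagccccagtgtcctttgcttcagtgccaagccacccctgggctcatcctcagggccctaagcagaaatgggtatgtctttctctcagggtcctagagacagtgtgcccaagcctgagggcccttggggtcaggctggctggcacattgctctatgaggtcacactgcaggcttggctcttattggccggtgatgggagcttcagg
The window before the first start held 4 GC boxes and a TATAA, and that before the other start held 0 GC boxes and no TATAA on either strand. Of 32851 RefSeq windows of 250 bases, 32.7% held a GC box and 22.8% a TATAA. Gene-level TPM do not say which start was used.

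Ace lay at 17.9, 31.1, 5.31 and 11.02 TPM in control muscle and 6.49, 8.96 and 8.26 TPM with lisinopril. In tumour-bearing muscle it lay at 50.6, 75.5, 37.1 and 26.03 TPM with melanoma and 43.1, 38.2, 23.2 and 34.1 TPM with melanoma plus lisinopril. The 3 lisinopril libraries lay within the control range, and the melanoma plus lisinopril libraries lay within the melanoma range except for 1 under it. The pooled log2 fold change of Ace was -0.53 (95% interval -1.16 to 0.09, unadjusted p = 0.0891, adjusted p = 0.680). Without control 2 and melanoma 2, which held the highest Ace level of their groups, it was -0.22. The renin gene Ren1 stayed under the filter, at most 0.0741 TPM.

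The substrate gene Agt, which encodes angiotensinogen, lay at 15.2, 6.85, 6.90 and 13.9 TPM in control muscle and 7.11, 11.5 and 5.99 TPM with lisinopril, and at 12.6, 25.7, 13.6 and 8.59 TPM with melanoma and 21.2, 25.8, 8.17 and 11.5 TPM with melanoma plus lisinopril. These ranges overlapped in both tumour states. The log2 fold change of Agt was -0.09 ± 0.28, and its sign turned with scaling, to 0.04 after median-ratio rescaling and 0.07 after quantile normalization. Atp6ap2, the prorenin receptor and an accessory subunit of the vacuolar proton pump, was at -0.12 ± 0.18 and likewise turned, to 0.00503 after median-ratio rescaling.

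The angiotensin receptors were low in every group. Agtr1a, the type 1 receptor, lay at 2.39, 2.18, 1.24 and 1.38 TPM in control muscle and 1.30, 1.26 and 1.81 TPM with lisinopril. With the tumour it lay at 2.44, 3.98, 3.36 and 1.48 TPM with melanoma and 1.55, 2.40, 1.28 and 1.11 TPM with melanoma plus lisinopril. Its log2 fold change was -0.37 (95% interval -0.72 to -0.02, unadjusted p = 0.0410, adjusted p = 0.680), -0.17 in tumour-free and -0.54 in tumour-bearing muscle, and the libraries with and without drug overlapped in both. The pooled value of Agtr1a was -0.26 without control 2 and melanoma 2, and -0.18 after quantile normalization. Agtr2, the type 2 receptor, lay at 2.52, 1.62, 0.558 and 1.15 TPM in control muscle and 0.0336, 1.38 and 0.0121 TPM with lisinopril. In tumour-bearing muscle it was at 0.174, 0.0428, 0.844 and 0.147 TPM without the drug and 0.0379, 0.116, 0.177 and 0.0144 TPM with it. Lisinopril 2 and melanoma 3 each lay far above the other libraries of their group. Agtr2 had a log2 fold change of -0.49 (95% interval -0.95 to -0.03, unadjusted p = 0.0391, adjusted p = 0.680). Agtr1b, the other type 1 receptor of mice, and Mas1, the receptor of a shortened angiotensin, stayed under the filter, at most 0.0670 and 0.141 TPM.

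Of the peptidases that cut angiotensins, Lnpep, Anpep, Prcp, Mme and Enpep had log2 fold changes from -0.77 to -0.19, and the other kept ones of the list, Prep, Nln, Thop1 and Rnpep, had -0.18, -0.16, 0.00150 and 0.07. Lnpep, the cystinyl aminopeptidase that travels with the glucose transporter of muscle and binds angiotensin IV, lay at 12.8, 18.4, 10.4 and 11.2 TPM in control muscle and 0.770, 9.01 and 7.95 TPM with lisinopril. Melanoma libraries held 10.2, 26.4, 20.1 and 14.1 TPM of Lnpep, and melanoma plus lisinopril libraries 9.21, 18.4, 14.3 and 14.5 TPM. Lisinopril 1 was far under every other library, the tumour-free groups did not overlap, and the tumour-bearing groups did. The pooled log2 fold change of Lnpep was -0.77 (95% interval -1.51 to -0.03, unadjusted p = 0.0414, adjusted p = 0.680), and without lisinopril 1 it was -0.38. Anpep, aminopeptidase N, was at -0.47 ± 0.24, the prolylcarboxypeptidase Prcp at -0.33 ± 0.16, the neutral endopeptidase Mme, neprilysin, at -0.28 ± 0.16 and the glutamyl aminopeptidase Enpep at -0.19 ± 0.17, in log2 ± SE, with adjusted p-values from 0.680 to 0.692. With melanoma plus lisinopril 1 or 4 left out, Enpep was at -0.12 and -0.12. After quantile normalization Lnpep was at -0.65, Anpep at -0.30, Prcp at -0.15, Mme at -0.11 and Enpep at -0.00524.

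On the kinin side, Bdkrb2, the constitutive bradykinin receptor, lay at 1.10, 1.28, 0.195 and 0.635 TPM in control muscle and 0.333, 0.453 and 0.359 TPM with lisinopril. For Bdkrb2 the levels were 0.823, 0.904, 2.12 and 1.11 TPM with melanoma and 0.526, 0.793, 0.450 and 0.685 TPM with melanoma plus lisinopril. In tumour-bearing muscle every library with lisinopril lay under every library without it, while in tumour-free muscle control 3 lay under all 3 lisinopril libraries. Bdkrb2 had a log2 fold change of -0.40 (95% interval -0.71 to -0.08, unadjusted p = 0.0167, adjusted p = 0.680). The inducible receptor Bdkrb1 stayed under the filter, at most 0.959 TPM, and Tmsb4x, whose product thymosin beta 4 is a precursor of a peptide that the enzyme degrades, was at -0.16 ± 0.17, or -0.04 without control 2 and -0.08 without lisinopril 3. Tmsb4x has close copies in the genome, so its TPM are uncertain to that extent.

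Over the whole renin-angiotensin list, 16 of 21 genes were kept. None was called, 0 were higher and 4 lower at an unadjusted p under 0.05 (Agtr2, Agtr1a, Lnpep and Agtrap, which encodes a protein that draws the type 1 receptor into the cell), and 3 of 16 lay above the median of all genes. Of all genes, 5.27% were lower at that threshold. The median of the list relative to all genes was -0.18, -0.17 without control 2 and melanoma 2, and -0.12 without control 2 alone. For the 9 kept kinin genes it was -0.04, and for the 22 kept genes of angiotensin receptor signalling and NADPH oxidase -0.06, with 1 gene lower at an unadjusted p under 0.05 in each. Without control 2 these medians were -0.02 and -0.03. That gene of the oxidase list was Nox4, a source of hydrogen peroxide, at -0.47 ± 0.21, and Cybb, the oxidase subunit of phagocytes, was at -0.58 ± 0.33, in log2 ± SE, and at -0.34 without control 2. Without control 2 and melanoma 2, which held the highest Nox4 levels of their groups, Nox4 was at -0.23.

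**Figure D2:**
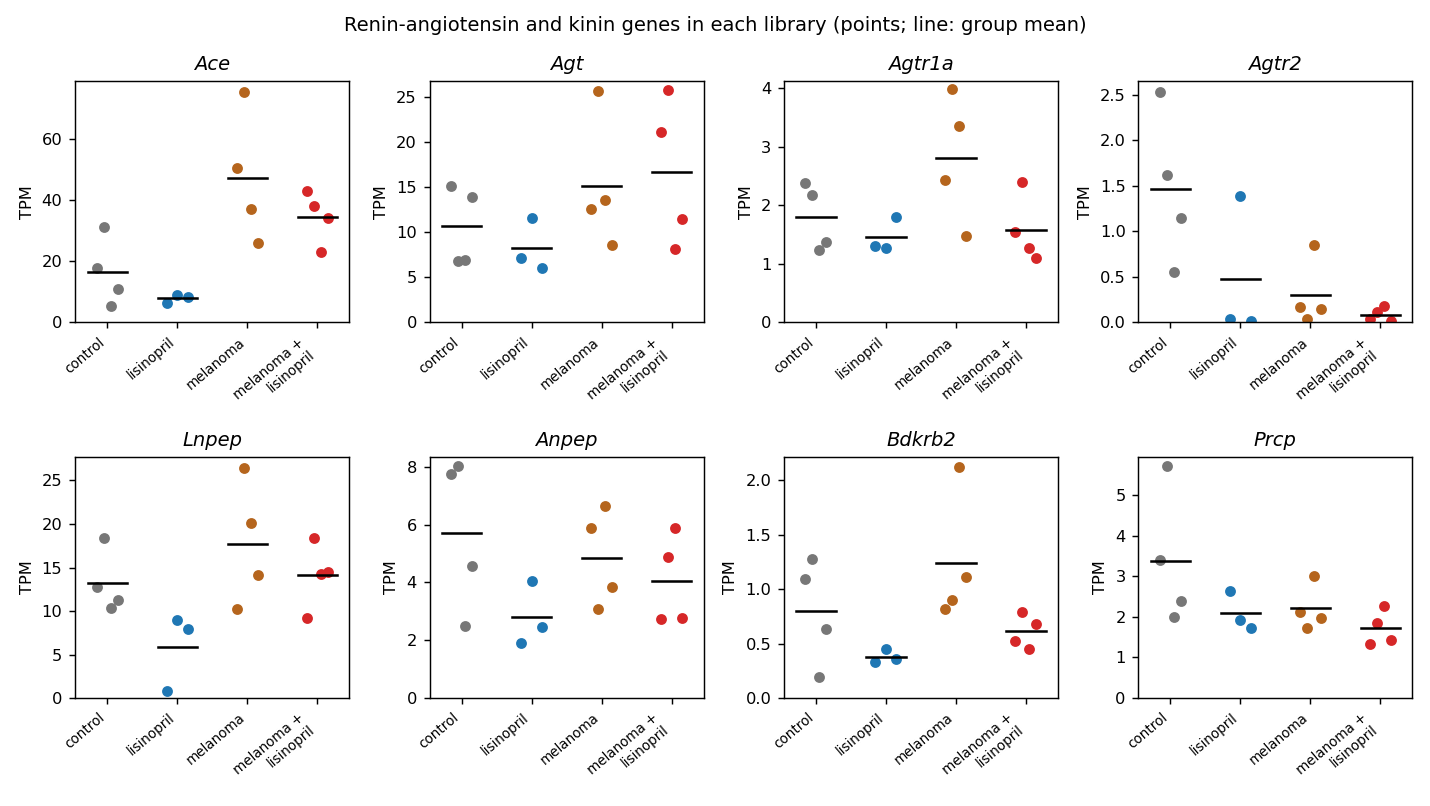
Each panel shows the TPM of 1 gene in the 15 libraries by group, with the group mean as a line and the y axis starting at 0. The libraries with and without lisinopril overlap within each tumour state for Ace, Agt, Agtr1a and Anpep, and 1 lisinopril library has Lnpep at 0.770 TPM.

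The gene with the smallest p was Pccb, the beta subunit of propionyl-CoA carboxylase, the mitochondrial enzyme that feeds propionyl-CoA from branched-chain amino acids and odd-chain fatty acids into the citric acid cycle. Pccb lay at 19.1, 21.4, 36.9 and 21.7 TPM in control muscle and 39.99, 37.02 and 59.3 TPM with lisinopril. The level of Pccb was 32.5, 19.3, 34.4 and 32.7 TPM with melanoma and 56.2, 48.1, 35.7 and 48.2 TPM with melanoma plus lisinopril. In both tumour states every library with lisinopril lay above every library without it, although lisinopril 2 and control 3 hardly differed. The pooled log2 fold change of Pccb was 0.76 (95% interval 0.40 to 1.12, unadjusted p = 4.20e-04, adjusted p = 0.680), and it lay between 0.63 and 0.89 over the 29 alternative settings. The gene lies on chromosome 9, 100982032 to 101034898, minus strand.

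Amd1, adenosylmethionine decarboxylase, which supplies the aminopropyl groups of the polyamines, also had a small p. It lay at 44.03, 73.8, 60.6 and 77.03 TPM in control muscle and 86.7, 69.6 and 98.8 TPM with lisinopril. With the tumour it lay at 59.8, 28.1, 41.9 and 52.03 TPM with melanoma and 57.2, 69.8, 74.7 and 60.2 TPM with melanoma plus lisinopril. The groups overlapped in both tumour states. Amd1 had a log2 fold change of 0.50 (95% interval 0.16 to 0.84, unadjusted p = 0.00698, adjusted p = 0.680), and since the genome holds near-identical copies its TPM are uncertain to that extent. Other higher values under the naming rule were 9330159F19Rik (0.49), Dnajb5 (0.31), a chaperone of the Hsp40 family, Lrrc14b (0.25), Asb5 (0.65), a muscle protein with a SOCS box, the RNA-binding splicing regulator Rbm24 (0.27), the tetraspanin Tspan8 (0.46) and the alcohol dehydrogenase Adhfe1 (0.29), in log2 and each with an adjusted p of 0.680.

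Among the lower values was the pair Lepr and Leprot, which lie side by side on chromosome 4 without overlap, with starts 69686 bases apart. Lepr encodes the receptor of the satiety hormone leptin, and Leprot a protein of endosomes that limits how much of that receptor reaches the cell surface. Lepr lay at 0.842, 1.03, 0.635 and 0.548 TPM in control muscle and 0.307, 0.308 and 0.541 TPM with lisinopril. In tumour-bearing muscle it was at 1.14, 1.66, 1.57 and 1.56 TPM without the drug and 0.769, 0.902, 0.887 and 0.687 TPM with it. Every library with lisinopril lay under every library without it in both tumour states, although lisinopril 3 and control 4 were close. Lepr had a log2 fold change of -0.40 (95% interval -0.60 to -0.20, unadjusted p = 6.51e-04, adjusted p = 0.680), and its low level means that the ratio of TPM is larger than this. Leprot lay at 18.7, 30.7, 14.4 and 14.5 TPM in control muscle and 11.7, 14.5 and 10.3 TPM with lisinopril. Melanoma libraries held 15.2, 17.8, 19.04 and 14.7 TPM of Leprot, and melanoma plus lisinopril libraries 9.81, 13.5, 12.4 and 12.2 TPM, where the groups did not overlap. Its log2 fold change was -0.51 (95% interval -0.83 to -0.20, unadjusted p = 0.00321, adjusted p = 0.680), and in tumour-free muscle lisinopril 2 lay above control 3. The pooled value of Leprot was -0.39 without control 2 and melanoma 2.

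Angptl4, a secreted inhibitor of lipoprotein lipase and a target of PPAR factors and of hypoxia, lay at 3.52, 1.84, 1.39 and 2.12 TPM in control muscle and 1.22, 0.845 and 1.03 TPM with lisinopril. For Angptl4 the levels were 0.597, 1.81, 1.60 and 1.72 TPM with melanoma and 0.422, 0.615, 0.830 and 0.876 TPM with melanoma plus lisinopril. The tumour-free groups did not overlap, and in tumour-bearing muscle melanoma 1 lay among the lisinopril libraries. Angptl4 had a log2 fold change of -0.56 (95% interval -0.88 to -0.24, unadjusted p = 0.00203, adjusted p = 0.680). It is counted in the fatty acid oxidation list, of which it was the gene with the smallest p, and the median of that list relative to all genes was 0.10, or 0.04 without control 2 and melanoma 2.

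Counted over all genes, 2 had every lisinopril library above every library without drug in both tumour states (0.0168%) and 4 had every such library under (0.0335%). With groups this small such separation also arises by chance, and how often was not computed. The 2 were Pccb and 9330159F19Rik, and the 4 were Lepr, Ttc39b, Stc1 and Cstf2, and apart from Pccb and 9330159F19Rik, which the naming rule also gives, they are named here after their values were seen. Stc1, stanniocalcin 1, a secreted regulator of calcium and phosphate, lay at 2.36, 5.59, 1.46 and 1.31 TPM in control muscle and 0.976, 0.976 and 1.13 TPM with lisinopril. The level of Stc1 was 1.48, 2.63, 2.46 and 1.90 TPM with melanoma and 1.36, 0.907, 0.684 and 1.06 TPM with melanoma plus lisinopril. Its log2 fold change was -0.68 (95% interval -1.08 to -0.28, unadjusted p = 0.00254, adjusted p = 0.680), and -0.48 without control 2 and melanoma 2. Ttc39b lay at 2.83, 4.96, 2.50 and 2.16 TPM in control muscle and 1.31, 1.85 and 1.07 TPM with lisinopril, and at 2.03, 2.53, 3.24 and 2.29 TPM with melanoma and 2.01, 2.03, 1.00 and 1.66 TPM with melanoma plus lisinopril. Melanoma 1 and melanoma plus lisinopril 2 hardly differed in Ttc39b. Cstf2, a factor of mRNA 3′ end cleavage, had a log2 fold change of -0.28 ± 0.11, and 9330159F19Rik of 0.49 ± 0.18, in log2 ± SE, and of 0.32 without melanoma 2.

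**Figure D3:**
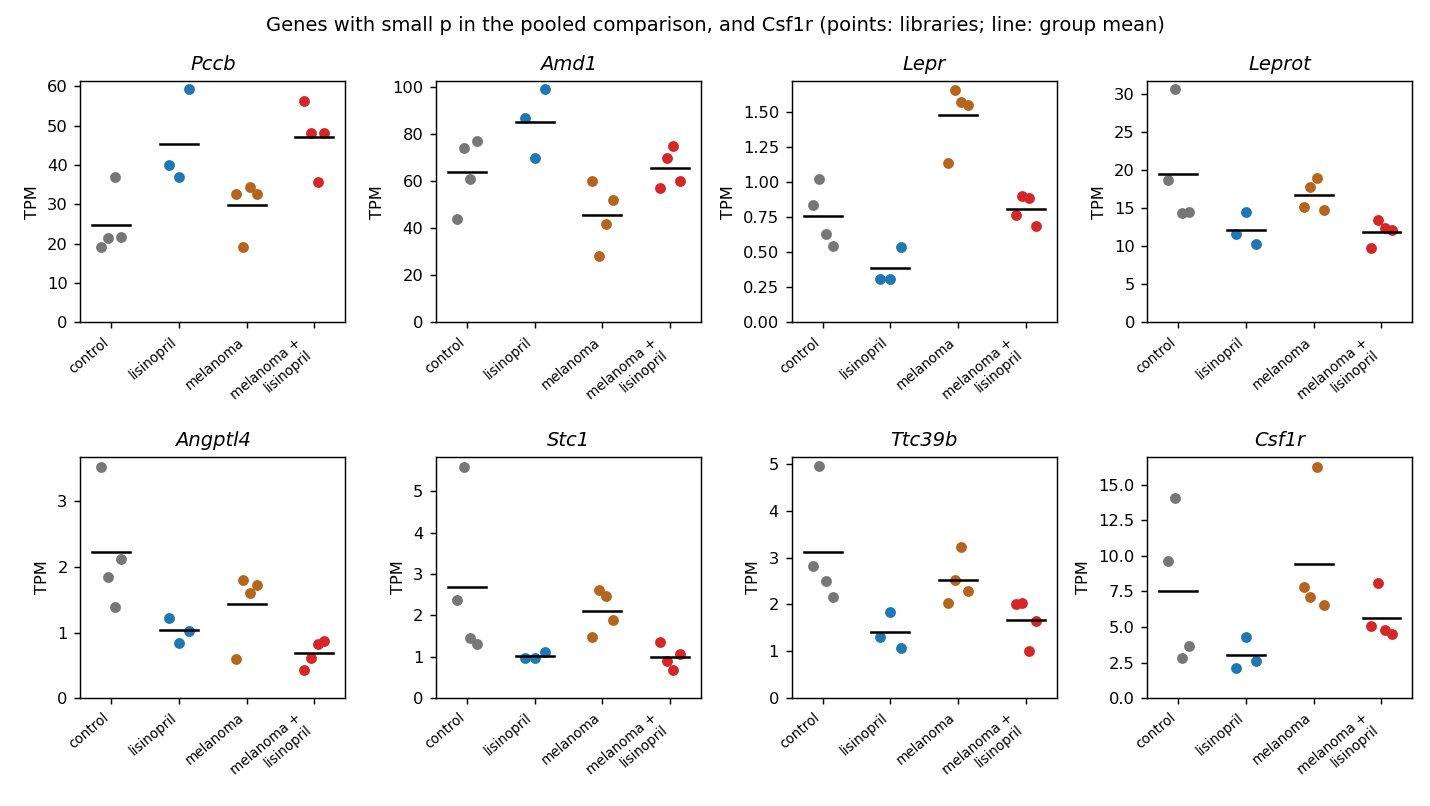
Each panel shows the TPM of 1 gene in the 15 libraries by group, with the group mean as a line. In both tumour states the lisinopril points lie wholly above the others for Pccb and wholly under them for Lepr, Stc1 and Ttc39b, while they overlap for Amd1 and Csf1r.

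Further lower values under the naming rule included Cpne2, a calcium-dependent phospholipid-binding copine, at -1.02 ± 0.28, Spg21 at -0.55 ± 0.17, the Arf GTPase-activating protein Acap2 at -0.44 ± 0.13, Foxred1, an assembly factor of respiratory complex I, at -0.27 ± 0.09, the phospholipase Plcb4 at -0.42 ± 0.13 and Pnrc2, a cofactor of mRNA decay, at -0.36 ± 0.12. Each had an adjusted p of 0.680. Without control 2 and melanoma 2, Cpne2 was at -0.97, Spg21 at -0.44 and Acap2 at -0.29. In the same setting Foxred1 was at -0.27, Plcb4 at -0.28 and Pnrc2 at -0.32. After quantile normalization Cpne2 was at -0.86, Spg21 at -0.39 and Acap2 at -0.28. Foxred1 was then at -0.13, Plcb4 at -0.25 and Pnrc2 at -0.27. These genes were picked for small p, so their values are a description and not a test.

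Markers of macrophages lay low with the drug relative to all genes, without a call. Of the 14 kept markers, 6 were lower and 0 higher at an unadjusted p under 0.05, against 5.27% and 0.176% of all genes. None lay above the median of all genes, and the median of the list was -0.49 relative to all genes. It was -0.57 in tumour-free and -0.45 in tumour-bearing muscle, and -0.45 pooled without control 2 and melanoma 2. Csf1r, the receptor for the growth factor that macrophages depend on, lay at 9.64, 14.1, 2.79 and 3.68 TPM in control muscle and 2.12, 4.29 and 2.62 TPM with lisinopril. With the tumour it lay at 7.84, 7.12, 16.3 and 6.58 TPM with melanoma and 5.10, 8.06, 4.80 and 4.48 TPM with melanoma plus lisinopril. In both states the lisinopril range overlapped the range without drug, and the highest values belonged to control 2 and melanoma 3. Csf1r had a log2 fold change of -0.74 (95% interval -1.34 to -0.15, unadjusted p = 0.0178, adjusted p = 0.680). The others at an unadjusted p under 0.05 were Cd14 (-0.87), the co-receptor for lipopolysaccharide, Cd68 (-1.14), a lysosomal glycoprotein, the mannose receptor Mrc1 (-0.56), the clotting factor subunit F13a1 (-0.72) and the haemoglobin scavenger receptor Cd163 (-0.55), in log2. The summed level of the markers ran from 110.1 to 564 TPM in control, 84.5 to 232 TPM with lisinopril, 216 to 495 TPM with melanoma and 177 to 346 TPM with melanoma plus lisinopril. In whole muscle, fewer cells of a type and less RNA per cell cannot be told apart, and the part of macrophage RNA in the other inflammatory values was not tested.

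Collagens and matrix genes also lay low relative to all genes, without a call. Of 24 kept genes 4 were lower and 0 higher at an unadjusted p under 0.05, against 5.27% and 0.176% of all genes. The list had 1 gene above the median of all genes, and its median relative to all genes was -0.39. It was -0.65 in tumour-free and -0.22 in tumour-bearing muscle, and -0.67 without control 2 and melanoma 2. The mean log2 level of the list relative to all genes was 2.41 in control 1 and 1.14 to 1.34 in the other controls. In melanoma 2 that level was -0.23, and in melanoma plus lisinopril 4, which was not left out, -0.35. Mmp14, a membrane-bound metalloproteinase, was at -0.95 ± 0.35, Mmp2, the gelatinase it activates, at -0.78, the proteoglycans Dcn, decorin, at -0.43 ± 0.18 and Bgn, biglycan, at -0.63, in log2. Col1a1, the main chain of type I collagen, lay at 194, 47.5, 35.5 and 43.7 TPM in control muscle and 11.7, 69.4 and 26.9 TPM with lisinopril. In tumour-bearing muscle it was at 41.8, 4.37, 74.6 and 22.5 TPM without the drug and 14.4, 24.9, 45.1 and 6.29 TPM with it. Control 1 stood far above all other libraries, the groups overlapped, and the log2 fold change of Col1a1 was -0.73 (95% interval -1.95 to 0.50, unadjusted p = 0.226, adjusted p = 0.689). It was -0.44 without lisinopril 1, -0.47 without control 1, -1.12 without melanoma 2 and -1.18 without control 2 and melanoma 2.

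Fibro-adipogenic progenitors, the fibroblast-like cells of muscle, are a known source of matrix transcripts. All 12 of their markers were kept, and 1 (Dcn) was lower at an unadjusted p under 0.05, where 5.27% of all genes were. The list median relative to all genes was -0.22. It was -0.13 without control 2, -0.30 without melanoma 2 and -0.23 without both. Of the 12 markers 0 lay above the median of all genes. Their summed level ran from 483 to 1303 TPM in control, 376 to 713 TPM with lisinopril, 974 to 1366 TPM with melanoma and 828 to 1060.4 TPM with melanoma plus lisinopril, and its part in the matrix values was not tested. In the list of TGF-beta response and fibrosis, the median relative to all genes was -0.17 over 21 kept genes, with 0 higher and 2 lower at an unadjusted p under 0.05. These were Timp1, an inhibitor of metalloproteinases, at -0.83 ± 0.31 and the receptor Tgfbr2 at -0.43, in log2. Tgfb1 itself was at -0.72 ± 0.45, with 61.4 TPM in control 2 against 2.76 to 10.9 TPM elsewhere, and at -0.33 without control 2.

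Acute phase and complement genes had 6 of 26 kept genes lower and 0 higher at an unadjusted p under 0.05. Of all genes, 5.27% were lower and 0.176% higher at that threshold. The list median relative to all genes was -0.35, or -0.18 without control 2 and melanoma 2. The smallest p belonged to Lbp, the lipopolysaccharide-binding protein, which lay at 6.44, 6.50, 2.13 and 3.71 TPM in control muscle and 1.28, 3.08 and 2.40 TPM with lisinopril. Melanoma libraries held 18.1, 27.4, 30.7 and 14.4 TPM of Lbp, and melanoma plus lisinopril libraries 13.6, 19.98, 8.52 and 13.8 TPM. The lisinopril and control ranges overlapped, and in tumour-bearing muscle only melanoma plus lisinopril 2 lay within the untreated range. Lbp had a log2 fold change of -0.70 (95% interval -1.19 to -0.21, unadjusted p = 0.00783, adjusted p = 0.680). Among the others were the complement genes Serping1 (-0.56), C4b (-0.60) and C1s1 (-0.54) and the metalloreductase Steap4 (-0.33), in log2. Interferon-stimulated genes had 0 of 26 at an unadjusted p under 0.05 and a median of -0.30 relative to all genes. That median was -0.05 without control 2 and melanoma 2, and in control 2 the mean log2 level of the list relative to all genes was 1.33 against -2.09 to -0.94 in the other libraries. Neutrophil markers had 0 of 8 at an unadjusted p under 0.05, a median of -0.38, or -0.20 without control 2 and melanoma 2, and a summed level of 22.5 to 109.5 TPM in control, 10.8 to 60.7 TPM with lisinopril, 109 to 367 TPM with melanoma and 34.8 to 193 TPM with melanoma plus lisinopril.

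Selp encodes P-selectin, which endothelium and platelets display to catch leukocytes. It lay at 4.72, 8.98, 2.18 and 3.54 TPM in control muscle and 2.88, 2.34 and 2.28 TPM with lisinopril. For Selp the levels were 6.49, 14.6, 32.5 and 23.3 TPM with melanoma and 2.77, 9.99, 1.49 and 9.09 TPM with melanoma plus lisinopril. In tumour-free muscle lisinopril and control libraries overlapped, and in tumour-bearing muscle 2 of the 4 treated libraries lay within the untreated range. Selp had a log2 fold change of -1.16 (95% interval -1.98 to -0.35, unadjusted p = 0.00822, adjusted p = 0.680), -0.62 ± 0.55 in tumour-free and -1.63 ± 0.51 in tumour-bearing muscle, and the difference between them was -1.01 ± 0.75 (unadjusted p = 0.201, adjusted p = 1.00). Markers of endothelium as a whole had a median of -0.05 relative to all genes (0.01 without control 2 and melanoma 2) over 14 kept genes and a summed level of 348 to 609 TPM in control, 366 to 559 TPM with lisinopril, 567 to 746 TPM with melanoma and 533 to 943 TPM with melanoma plus lisinopril. Their part in the Selp values was not tested.

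Fast fibre, glycolysis, respiratory chain and calcium handling genes lay on the other side of the all-gene median, while slow and oxidative fibre genes had a pooled median of -0.23 relative to it. Of 14 fast fibre genes 13 lay above it, with a list median of 0.35 relative to all genes and 0 at an unadjusted p under 0.05. Pvalb lay at 5614, 6739.7, 6293 and 12137 TPM in control muscle and 13242, 10379 and 14622 TPM with lisinopril. The level of Pvalb was 9801, 554, 6045 and 6139 TPM with melanoma and 5159, 6808, 10074 and 8717 TPM with melanoma plus lisinopril. Both pairs of groups overlapped, and the log2 fold change of Pvalb was 0.89 (95% interval -0.08 to 1.86, unadjusted p = 0.0692, adjusted p = 0.680), or 0.38 without control 2 and melanoma 2. Myh4, the fastest myosin heavy chain, was at 0.43, the fast troponin Tnnc2 at 0.29 and Myh1, the intermediate fast myosin, at -0.27, in log2. The list median without the 2 libraries was 0.11.

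All 29 nuclear genes of the respiratory chain lay above the all-gene median, with a list median of 0.19 relative to it, or 0.07 as fitted, and 0 at an unadjusted p under 0.05. The smallest p was that of Ndufb8, a subunit of complex I, at 0.18 ± 0.09, and without control 2 and melanoma 2 the list median was 0.05. Glycolysis and glycogen genes had a median of 0.27 with 0 of 23 at an unadjusted p under 0.05, and 0.04 without the 2 libraries. Calcium handling genes had a median of 0.19, and 0.05 without them. After quantile normalization the medians of the fast fibre, respiratory chain, glycolysis and calcium handling lists were 0.12, 0.07, 0.14 and 0.08. In this list Mrln, myoregulin, an inhibitor of the calcium pump, was at 0.54 and Sln, sarcolipin, another inhibitor of it, at -1.65 ± 0.70, in log2. Sln ran from 1.01 to 135 TPM, with 2.89, 34.1 and 1.01 TPM in the lisinopril libraries and 114, 90.4, 22.5 and 12.3 TPM in the controls, which overlapped. Red blood cell markers had a median of 0.55 over 5 of 9 genes kept, 1.01 without control 2 and 0.12 without melanoma 2, with summed levels from 426 to 24253 TPM in control, 1589 to 4213 TPM with lisinopril, 160.1 to 1565 TPM with melanoma and 165 to 2221 TPM with melanoma plus lisinopril.

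Atrophy genes had a median of -0.11 relative to all genes, and 0.07 without control 2 and melanoma 2. The mean log2 level of the list relative to all genes was 3.34 in melanoma 2. In melanoma plus lisinopril 4, which was not left out, it was 3.05. At an unadjusted p under 0.05, 3 of 31 atrophy genes were lower, where 5.27% of all genes were. These were Traf6, a ubiquitin ligase of inflammatory signalling, at -0.25, Sln, and the activin receptor Acvr2b at -0.37. After quantile normalization Traf6 was at -0.08. Fbxo32, the muscle ubiquitin ligase atrogin-1, lay at 139, 229.9, 84.97 and 89.9 TPM in control muscle and 101, 94.95 and 79.5 TPM with lisinopril. With the tumour it lay at 204, 986, 201 and 180.3 TPM with melanoma and 357, 66.2, 149.9 and 777 TPM with melanoma plus lisinopril. Melanoma 2 and melanoma plus lisinopril 4 were the highest, and the treated and untreated tumour-bearing ranges overlapped. Fbxo32 had a log2 fold change of -0.39 (95% interval -1.39 to 0.60, unadjusted p = 0.411, adjusted p = 0.745), -0.11 without melanoma 2 and 0.05 without control 2 and melanoma 2. It was -0.10 and -0.69 with melanoma plus lisinopril 2 or 4 left out. Trim63, the ligase MuRF1, was at -0.11 ± 0.42, and its sign turned to 0.0268 after median-ratio rescaling. Mstn, myostatin, the inhibitor of muscle growth, was at 0.36 ± 0.31, with levels from 12.9 to 93.7 TPM, and its sign turned under sample quality weights. Without control 3 it was 0.23, and without melanoma plus lisinopril 4 0.20. Igf1, the growth factor that opposes wasting, was at -0.51 ± 0.27 and Ppargc1a, the coactivator of mitochondrial biogenesis, at 0.34 ± 0.31, in log2 ± SE. Leaving out melanoma plus lisinopril 1 or 2 gave 0.15 and 0.19 for Ppargc1a. Ppargc1a was at -0.23 ± 0.42 in tumour-free and 0.83 ± 0.39 in tumour-bearing muscle. Its interaction by limma was 1.06 ± 0.57 (unadjusted p = 0.0827). The melanoma plus lisinopril libraries held 59.7, 50.1, 21.6 and 13.8 TPM of Ppargc1a.

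**Figure D4:**
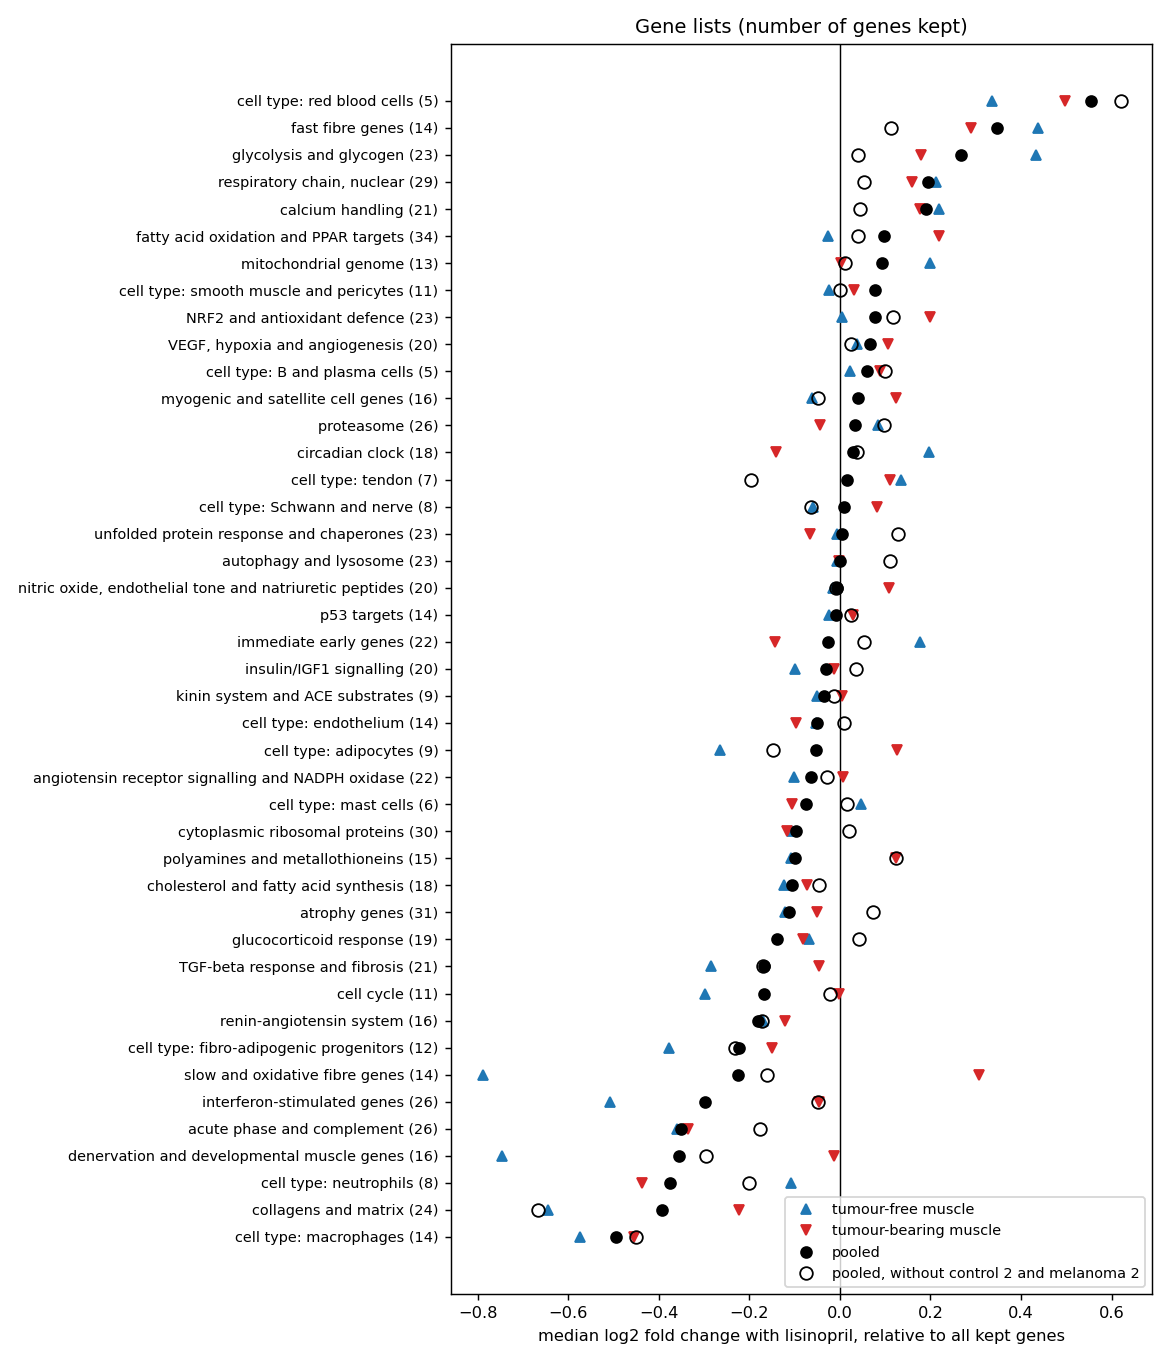
Each line of points is a gene list with its number of kept genes, and the x axis is the median log2 fold change with lisinopril relative to all kept genes, pooled, in each tumour state, and pooled without control 2 and melanoma 2. Macrophage markers and matrix genes lie at -0.49 and -0.39 pooled and fast fibre genes at 0.35, and the open circle of the fast fibre genes at 0.11 lies closer to 0.

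The additive model gives 1 drug difference for both tumour states, and the interaction asks whether they differ. Limma called 0 of 11923 genes for the interaction (smallest adjusted p 1.00), with 151 genes (1.27%) at an unadjusted p under 0.05. Within tumour-free muscle it called 0 (smallest adjusted p 0.592), with 461 (3.87%) at an unadjusted p under 0.05, and within tumour-bearing muscle 0 (smallest adjusted p 1.00), with 189 (1.59%). The interaction's median standard error was 0.30, about 2 times that of the pooled difference. The log2 fold changes of the 2 states, which share no library, had the same sign for 8033 genes (67.4%), and for 7132 (59.8%) after each state's median was subtracted. Across genes, which are not independent replicates, their Pearson correlation was 0.18 and Spearman's rho 0.27.

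Slow and oxidative fibre genes were where the 2 states lay farthest apart among the lists with at least 5 kept genes, with medians of -0.79 in tumour-free and 0.31 in tumour-bearing muscle relative to all genes, untested as a list. Mean log2 levels of this list relative to all genes overlapped with and without the drug in both states. They were 0.54, 1.56, 0.24 and 2.34 in the melanoma plus lisinopril libraries, and library 4 was the highest of all 15. Denervation and developmental muscle genes had medians of -0.75 and -0.01. Their levels also overlapped in both states, with 1.73 in control 1, 0.46 to 0.76 in the other controls and 0.95 in lisinopril 2. How far single libraries carried these contrasts was not tested. Among single genes Nr4a3, an orphan nuclear receptor induced by exercise and by cAMP, lay at 22.4, 14.9, 5.97 and 12.7 TPM in control muscle and 12.1, 18.4 and 6.54 TPM with lisinopril. In tumour-bearing muscle it was at 12.99, 15.6, 26.9 and 33.2 TPM without the drug and 117, 58.3, 69.1 and 43.9 TPM with it, where the groups did not overlap. Its log2 fold change was -0.15 ± 0.44 in tumour-free and 1.66 ± 0.41 in tumour-bearing muscle, and the interaction was 1.81 ± 0.60 (unadjusted p = 0.00908, adjusted p = 1.00). Asb5 lay at 165, 167, 134 and 159.7 TPM in control muscle and 137, 184 and 159 TPM with lisinopril. Melanoma libraries held 216, 159.8, 190.2 and 154 TPM of Asb5, and melanoma plus lisinopril libraries 423, 784, 244 and 339.9 TPM, again apart only in this state. The interaction of Asb5 was 1.16 ± 0.39 (unadjusted p = 0.00935, adjusted p = 1.00). Cpne2 was at -1.78 ± 0.34 in tumour-free and -0.37 ± 0.31 in tumour-bearing muscle, with an interaction of 1.42 ± 0.46 (unadjusted p = 0.00787, adjusted p = 1.00).

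**Figure D5:**
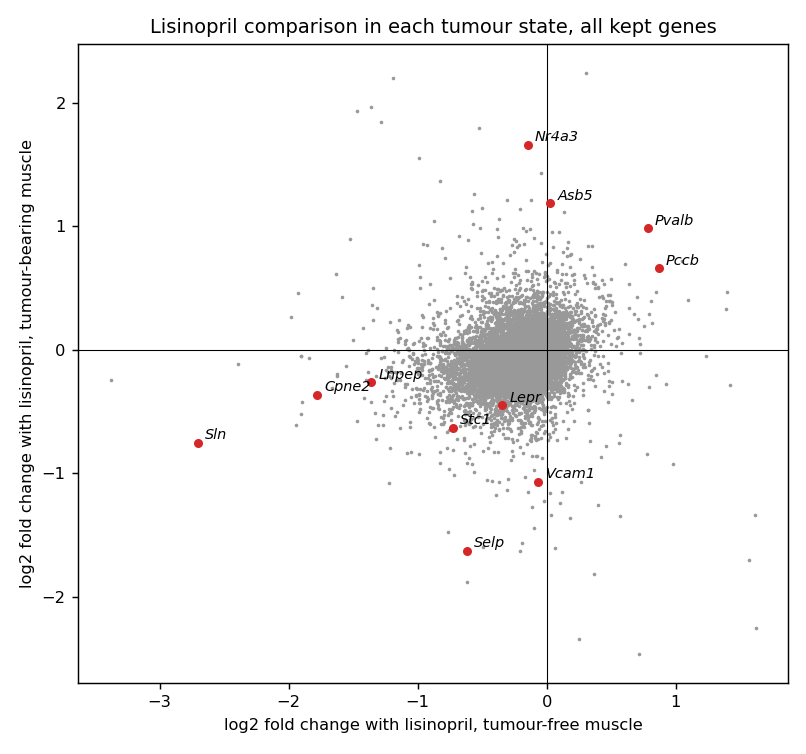
Each point is 1 gene, with its log2 fold change with lisinopril in tumour-free muscle on the x axis and in tumour-bearing muscle on the y axis. Pccb lies right of and above 0 at 0.87 and 0.66, while Nr4a3 lies at -0.15 and 1.66 and Sln at -2.71 and -0.75.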

How the data were processed

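RNA of tibialis anterior muscle was sequenced as 15 stranded mRNA libraries, per the labels' protocols. The deposited table gives TPM per gene symbol and library as the authors computed them, and the submitters' processing notes name the mouse build mm10. No aligner, counter or annotation is given in the sources used here. TPM keep no sequencing depth, so no counting error could be given and no count test was run. Libraries were grouped by their labels.

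Genes with at least 1 TPM in at least 3 of 15 libraries were kept, and log2(TPM + 1) was fitted with limma 3.58.1 in R 4.3.3 (tumour plus lisinopril, empirical Bayes with a mean trend). P-values were adjusted by Benjamini-Hochberg over all 11923 genes at a threshold of 0.05, and intervals are 95%. The interaction and the differences within each tumour state came from a fit of 4 group means. The fit was tested on simulated data. These had equal spread in every library, with no outlying library and no shared shift with the drug, and the test does not cover those. Values were tabulated and plotted in Python 3.11.15 with pandas 2.3.3, numpy 2.4.6 and matplotlib 3.10.9. Positions are from GENCODE M21, in which 94.7% of the symbols were found, and promoter windows from RefSeq (GRCm38.p6).

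The genes, gene lists and tests were chosen with earlier results of these data known. Under the naming rule, genes past the threshold would have come first. As none passed, up to 10 genes per direction with the smallest p, at least 5 TPM in the higher arm and the same direction in both tumour states were taken, with the member of smallest p from each list and a panel of angiotensin, kinin and atrophy genes. Other list members were named after their values were seen. Alternatives covered the pseudocount (0.1), low-value filters, scaling, variance model, sample weights, a replicate block, leaving out each library, and leaving out control 2 and melanoma 2 together. Whether the same replicate numbers across groups pair the libraries could not be settled, and only the replicate block treated them so. Some genes of the panel and lists are not reported here.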

Additional observations from a re-analysis of the deposited data

Results flagged for a closer look

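In groups of 4 libraries, a value counted as standing apart when its gap to the nearest of the other 3 exceeded Dixon's 95% critical share of the group's range. Chance alone gives such a value in about 5% of groups, and there were 25 in 228 groups over the genes named. Melanoma 2 gave 9 of the 25.

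Melanoma 2 was the highest melanoma library for Fbxo32 (986 TPM), Trim63 (1974 TPM), Atp6ap2 (30.8 TPM), Bdkrb1 (0.959 TPM), Tmsb4x (318 TPM), Ppargc1a (34.0 TPM) and Rpl3 (119 TPM), and the lowest for Pccb (19.3 TPM) and 9330159F19Rik (3.85 TPM). Among the other melanoma libraries, melanoma 1 was the lowest for Angptl4 (0.597 TPM) and the highest for Agtr1b (0.0416 TPM) and Tspan8 (118 TPM), and melanoma 3 the highest for Agtr2 (0.844 TPM) and Csf1r (16.3 TPM).

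In the control group, control 1 was the highest for Igf1 (7.89 TPM), Col1a1 (194 TPM) and Timp1 (16.4 TPM), control 2 for Tgfb1 (61.4 TPM) and Sele (17.7 TPM), and control 3 for Pccb (36.9 TPM).

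With melanoma plus lisinopril, library 1 was the lowest for Cstf2 (1.79 TPM), and the highest was library 2 for 9330159F19Rik (18.7 TPM), library 3 for Acap2 (7.84 TPM) and library 4 for Agtr1b (0.0670 TPM) and Lrrc14b (108 TPM). The lisinopril group has 3 libraries and was not examined in this way.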

How the results depend on the processing

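Limma called 0 genes for the pooled effect under all 29 alternatives, and 0 for the interaction (28 alternatives) and within each tumour state (29 alternatives each). The smallest adjusted p was 0.332 to 1.00 pooled, 0.136 to 1.00 for the interaction, 0.0774 to 1.00 in tumour-free and 0.126 to 1.00 in tumour-bearing muscle. Pooled counts at an unadjusted p under 0.05 ran from 289 to 1391 with each library left out, the lowest without lisinopril 1 and the highest without control 3, against 649 in all. Leaving out control 1, control 2, lisinopril 3, melanoma 3 or melanoma plus lisinopril 1 gave 356, 429, 414, 359 and 363, and leaving out melanoma 4 or melanoma plus lisinopril 4 gave 1028 and 984. Other settings gave 1091 without a filter, 269 at a mean of at least 5 TPM, 374 after quantile normalization, 1076 without mitochondrial genes, 1699 with sample weights, and 401 without control 2 and melanoma 2. In tumour-free muscle the counts ran from 117 without lisinopril 1 to 1999 without control 3, against 461 in all.

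With a replicate block, limma called 0 pooled genes, with 943 at an unadjusted p under 0.05 and a smallest adjusted p of 0.598. The block gave 233 genes at an unadjusted p under 0.05 for the interaction, 955 in tumour-free and 227 in tumour-bearing muscle. Over 21 pairs with the same number, correlations of deviations ran from -0.15 to 0.36, 9 of them over 0.1. Pairs with different numbers ran from -0.42 to 0.36 and also held values over 0.1, so pairing stays unsettled.

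Of 71 named genes, 65 kept their sign under every alternative run and 6 did not. All 6 belonged to the panel named whatever its result. Many of the 65 were picked for small p in the same fit, so their kept sign is no test of them. Agt turned to 0.0389 after median-ratio rescaling, 0.0681 after quantile normalization and 0.0467 after rescaling without control 2 and melanoma 2, and ran from -0.22 to 0.0372 with each library left out. Atp6ap2 turned to 0.00503, 0.000158 and 0.0585 under the same 3 settings. Rescaling without both libraries turned Tmsb4x to 0.0638, Fbxo32 to 0.12 and Trim63 to 0.35. Without both libraries and no rescaling, Fbxo32 was at 0.0523 and Trim63 at 0.28. Trim63 was at 0.0268 after median-ratio rescaling, 0.11 with sample weights and -0.35 to 0.172 with each library left out. Mstn was at -0.10 with sample weights. The cause of these turns was not tested. Depth is unknown, so how far it limits low genes such as Agtr2 and Lepr could not be measured.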

Other observations

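The leukocyte adhesion genes of activated endothelium have further values beside those of Selp. Sele and Icam1 were looked at after their values were seen and lie outside the naming rule. Sele, E-selectin, lay at 2.90, 17.7, 2.06 and 4.68 TPM in control muscle and 3.70, 1.76 and 3.50 TPM with lisinopril. In tumour-bearing muscle its levels were 6.83, 11.1, 18.7 and 16.2 TPM without the drug and 1.53, 7.16, 0.404 and 4.97 TPM with it. Control 2 was far above the other tumour-free libraries, and melanoma plus lisinopril 2 lay within the untreated range. By limma the pooled log2 fold change of Sele was -1.30 (95% interval -2.23 to -0.37, unadjusted p = 0.00918, adjusted p = 0.680), or -1.06 without control 2 and melanoma 2.

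Icam1, the ligand of leukocyte integrins, lay at 27.3, 31.6, 5.64 and 21.1 TPM in control muscle and 21.1, 18.3 and 12.4 TPM with lisinopril, and at 16.4, 21.7, 54.7 and 36.1 TPM with melanoma and 8.18, 16.9, 4.76 and 14.6 TPM with melanoma plus lisinopril. Its ranges overlapped in both tumour states, and its log2 fold change by limma was -0.83 ± 0.39 (adjusted p = 0.680). Vcam1, which binds another leukocyte integrin and also marks satellite cells, lay at 6.36, 6.72, 2.77 and 5.98 TPM in control muscle and 5.32, 4.93 and 4.60 TPM with lisinopril, and at 2.68, 3.40, 8.60 and 5.75 TPM with melanoma and 0.807, 3.16, 1.59 and 1.80 TPM with melanoma plus lisinopril. It overlapped in tumour-free muscle, and in tumour-bearing muscle melanoma plus lisinopril 2 lay above melanoma 1. Its log2 fold change was -0.07 ± 0.34 in tumour-free and -1.07 ± 0.31 in tumour-bearing muscle, with an interaction by limma of -1.002 ± 0.46 (unadjusted p = 0.0468, adjusted p = 1.00). None of these genes passed the threshold.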
